A study of Mus musculus with 12 samples.

Results

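The miRNAs of the imprinted Dlk1-Dio3 region were taken as the plain mature mouse probe sets, star strands left out, whose array annotation places their hairpin on chromosome 12 with a start between 110600000 and 111100000. This gave 65 members from 54 hairpins, of 717 mature mouse probe sets tested and 1412 mouse probe sets in all. The study measured miRNAs in NIH3T3 cells, an immortalised mouse embryonic fibroblast line, by GeneChip miRNA arrays. Proliferating cultures received 2 μg per ml tunicamycin, which blocks N-linked glycosylation and so causes ER stress, for 2, 5 or 10 h, and the cells at 0 h had no treatment. Each of the 4 times had 3 arrays, 12 in all. The series holds no untreated arrays at the later times, so tunicamycin and time in culture cannot be told apart. The labels do not say whether the 3 arrays of a time came from separate cultures, so a p-value here covers the spread among arrays alone, and that spread may be technical. In total RNA from whole cultures, fewer cells with a miRNA and less of it per cell cannot be told apart.

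The Dlk1-Dio3 region is an imprinted domain in which protein-coding genes such as Dlk1, Rtl1 and Dio3 are expressed from the paternal chromosome. The non-coding RNAs Meg3 and Rian, the Mirg transcript, many small nucleolar RNAs and one of the largest known clusters of mammalian miRNAs are expressed from the maternal chromosome. These miRNAs are known mainly from embryo, placenta and brain. Several of them, miR-127 and miR-136 among them, lie antisense to Rtl1 and match its mRNA in full, so that they can direct its cleavage.

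The mature sequences below are those of the members that passed a test over time and of 4 members named beside them, shown because the region holds many related hairpins whose products differ in few bases. They are from RefSeq with GRCm38.p6, are written 5′ to 3′, and the capitals mark the seed (bases 2 to 8), the part that pairs with targets.
miR-127: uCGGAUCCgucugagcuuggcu
miR-494: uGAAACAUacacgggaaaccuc
miR-541: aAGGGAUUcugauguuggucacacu
miR-409-3p: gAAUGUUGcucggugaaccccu
miR-543: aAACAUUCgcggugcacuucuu
miR-495: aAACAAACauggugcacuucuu
miR-134: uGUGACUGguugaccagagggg
miR-376b: aUCAUAGAggaacauccacuu
miR-376a: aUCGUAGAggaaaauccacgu
miR-493: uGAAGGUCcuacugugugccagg
miR-1197: uAGGACACauggucuacuucu
miR-379: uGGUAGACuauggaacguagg
miR-411: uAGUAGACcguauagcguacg

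A sequence was found for 60 of the 65 members, 25 under the same name and 35 under the arm to which the older name on the array was assigned. That assignment was made by hand and was not checked against probe sequences. It applies to every sequence printed above under a name without an arm. Those 60 carried 60 distinct seeds, so no pair of them shared bases 2 to 8. Close relatives differed inside the seed as well as outside it. Counted from 1 at the 5′ end, miR-376a differed from miR-376b by A4G, C13A and U20G, and miR-495 differed from miR-543 by U6A, U7A, G9A and C10U. MiR-411 differed from miR-379 at 7 positions, of which G2A lies in the seed. The sources used here do not say how well the probe sets separate such relatives.

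All values below are the log2 values that the authors deposited. The background limit of an array, its most frequent value plus 3 times the spread of the values below that, was 3.31 to 3.47. The share of tested probe sets above the limit was 49.9% to 52.6% per array. All 10 fibroblast or mesenchymal marker miRNAs were above the limit on all 12 arrays, with a summed linear level of 77300 to 77700 for 0 h, 78000 to 78600 for 2 h, 76000 to 77700 for 5 h and 74000 to 74900 for 10 h. In limma 3 of these markers were higher and 1 lower at 2 h, with miR-214 higher by 0.37 and miR-10b by 0.36, and 1 was higher and 4 lower at 5 h and again at 10 h. Of the 8 embryonic stem cell markers none was above the limit on any array, of the 4 neuron markers 2 were above it on all 12, and miR-122 of liver was above it on none. Of the 4 muscle markers only miR-206 was above it, on all 12 arrays, and of the 5 blood markers only miR-451, on 2. MiRNAs best known from epithelial cells also moved with time, with 5 lower and none higher than at 0 h at each later time in limma. The shares of all tested probe sets lower at 2, 5 and 10 h were 5.86%, 4.04% and 7.11%. Of 7 on the list, miR-205 and miR-200c were above the limit on 6 arrays and miR-200b on 2, and the other 4 on none. Their summed linear level was 800.0 to 875 on the 0 h arrays, 69.3 to 91.1 for 2 h, 24.3 to 25.9 for 5 h and 23.9 to 28.1 for 10 h. This sum mostly follows miR-205 and miR-200c, with log2 means of 9.21 and 7.74 at 0 h. MiR-141 and miR-429 were neither higher nor lower in limma, with differences from 0 h of -0.28 to 0.22. The part of these shifts in the differences of members from 0 h given below was not tested. Compared with the mean of the other 2 arrays of its time, the second 0 h array differed by at least 1 on the log2 scale for 6 members and the second 5 h array for 5, which is 9.2% and 7.7% of members against 5.7% and 4.0% of all tested probe sets. On each of the other arrays 0 to 2 members did so.

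Part of the region was measured well in these fibroblasts and part was not. Above the limit on all 12 arrays were 16 members, miR-337-5p, miR-665, miR-431, miR-127, miR-434-3p, miR-434-5p, miR-432, miR-379, miR-411, miR-299, miR-329, miR-494, miR-382, miR-134, miR-541 and miR-409-3p. A further 20 members were above it on 1 to 11 arrays, and 29 on none, with means over the 12 arrays of 1.48 to 2.77 for those 29. The number of members above the limit on an array was 22 to 24 for 0 h, 27 or 28 for 2 h, 24 to 28 for 5 h and 22 to 24 for 10 h. Values of different probe sets are not compared as amounts, since each set of probes has its own response.

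**Figure D1:**
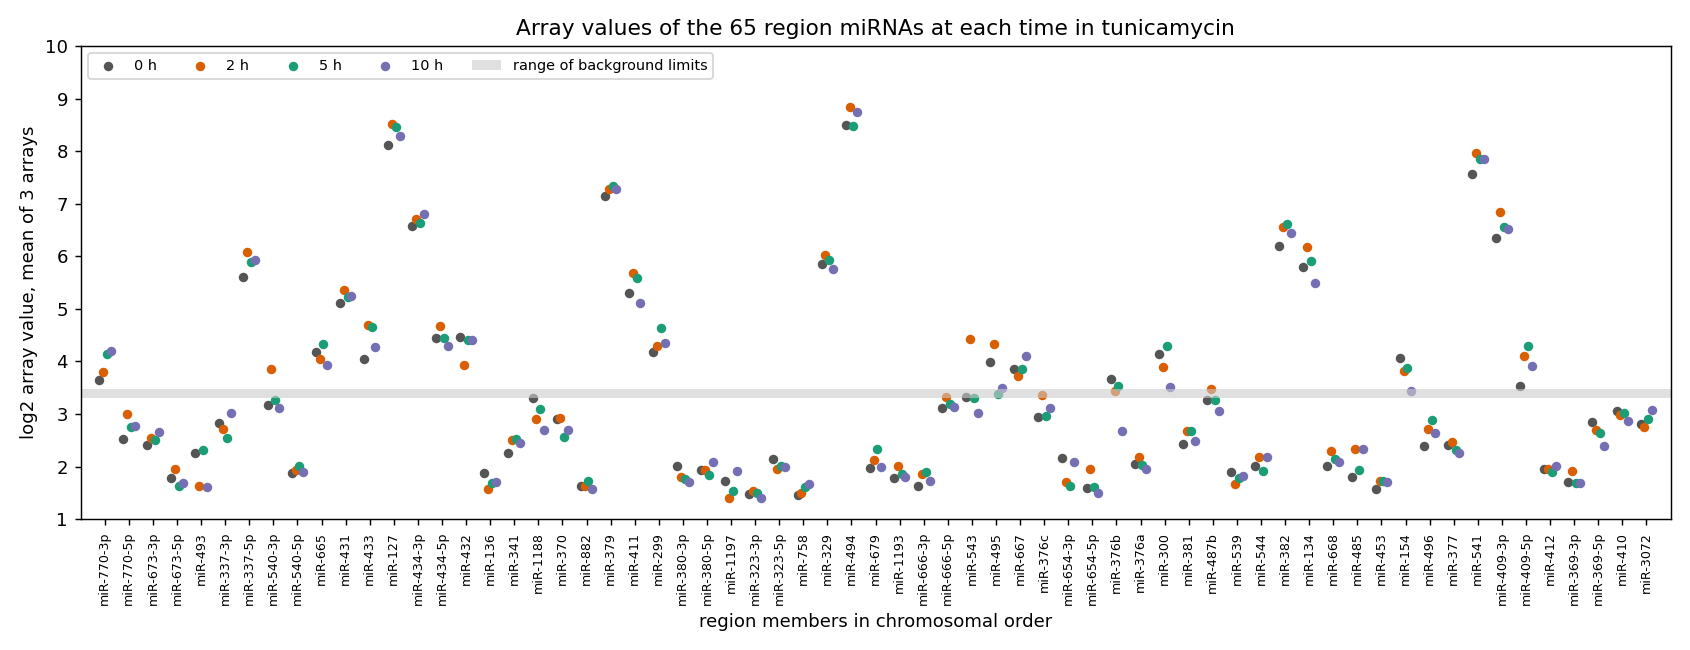
Mean log2 array value (vertical axis, 3 arrays a time) of the 65 members in chromosomal order (horizontal axis), coloured by hours in tunicamycin, with the range of the 12 background limits as a grey band. Members with values far above the band stand beside members below it, and the 4 times of a member mostly lie close together.

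The well measured members came from both main groups of hairpins. Split where neighbours lay more than 10 kb apart, the first group ran from miR-770 to miR-136 and held 17 members, of which 7 were above the limit on all 12 arrays and 5 on none. The largest group ran from miR-379 to miR-3072 with 44 members, 9 on all 12 arrays and 21 on none. Between them, miR-341, miR-1188 and miR-370 formed a group of 3 and miR-882 stood alone, and none of these 4 was above the limit on all 12 arrays. In the RefSeq annotation of GRCm38.p6, 15 members lay within Rtl1, 12 within Mirg, 3 within Rian and 2 within Meg3, and 33 within no gene of these. All 54 hairpins were on the plus strand of the array annotation, and the sources used here give no genome build for it.

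Where both arms of a hairpin were members, the arms often differed in the number of arrays above the limit. Both arms were members for 11 hairpins. The 14 star strands of the region, which come from other hairpins, are not in this count and are given below. Both arms of miR-434 were above the limit on all 12 arrays, while miR-337-5p was above it on 12 arrays and miR-337-3p on 1. MiR-409-3p was above it on 12 arrays and miR-409-5p on 11, and miR-770-3p on 11 and miR-770-5p on 1. For 4 of these 11 hairpins, miR-673, miR-380, miR-323 and miR-654, neither arm was above it on any array.

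Few members passed a test over time. Members with a Benjamini-Hochberg adjusted p under 0.05 in limma, adjusted over the 717 probe sets and fitted on all 12 arrays, are named as called. At 2 h against 0 h, 6 members were called, where 13.2% of all tested probe sets were, with 5 higher (7.39% of all) and 1 lower (5.86% of all). At 5 h 1 member was called (8.37% of all), higher (4.32% of all). At 10 h 2 members were called (12.7% of all), both lower (7.11% of all). The moderated F test over the 3 contrasts called 7 members, where 21.8% of all tested probe sets were called. The share of members called was below that of all tested probe sets in each of these except higher members at 2 h (7.69%). Members were less often above the limit on all 12 arrays than all tested probe sets, so these shares compare unequally measured sets. Of the 16 members above it on all 12, 4 were called higher at 2 h (25.0%, against 15.8% of the 323 such probe sets). None was called lower (11.1% of the 323). At 5 h 1 was higher (6.25%, against 9.29%) and 0 lower (6.50%). At 10 h 0 were higher (12.1%) and 0 lower (12.7%), and the F test called 3 (18.8%, against 44.0%). An exact permutation test of 3 arrays against 3 has 0.1 as its smallest p, and the calls therefore depend on the pooled spread of the limma fit. With each array shifted to 1 median, 5 of the 6 calls at 2 h ended. The limma adjusted p was then 0.12 for miR-127, 0.15 for miR-494, 0.14 for miR-541, 0.16 for miR-409-3p and, rounded, 0.05 for miR-543, with differences of 0.30 to 1.06, and miR-493 stayed called. The medians of tested probe sets that this shift made equal were 3.4 to 3.655, near the background limit. How many of all tested probe sets stayed called was not counted. The ended calls are therefore not a result about the members alone, here or below. The methods' t-test with Benjamini-Hochberg adjustment called none at 2, 5 or 10 h, and 11, 2 and 6 members had an unadjusted p under 0.05 (20.5%, 15.3% and 21.3% of all tested probe sets).

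The median difference of the members at 2 h lay above that of all tested probe sets. The median log2 difference from 0 h over the 65 members was 0.155 for 2 h, 0.066 for 5 h and 0.022 for 10 h, beside 0.028, 0.028 and 0.017 over all 717 probe sets. At 2 h 45 members had a fitted difference above 0 (54.8% of all tested probe sets did), and 14 of the 16 members above the limit on all 12 arrays (53.6% of the 323 such probe sets). The median over those 16 was 0.284 for 2 h, 0.179 for 5 h and 0.154 for 10 h, beside 0.023, 0.031 and 0.013 over the 323. Without the third 0 h array the median over the 16 was 0.316 for 2 h, 0.304 for 5 h and 0.197 for 10 h, in the same order but with 5 h close to 2 h. With each array shifted to 1 median it was 0.246, 0.165 and 0.237, and after quantile normalization 0.370, 0.193 and 0.220. The order of 5 h and 10 h therefore depends on the scaling. At 2 h the arrays did not overlap those at 0 h for 17 members that were higher (17.6% of all) and 3 that were lower (12.6% of all). These counts and medians describe the members and were not tested.

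**Figure D2:**
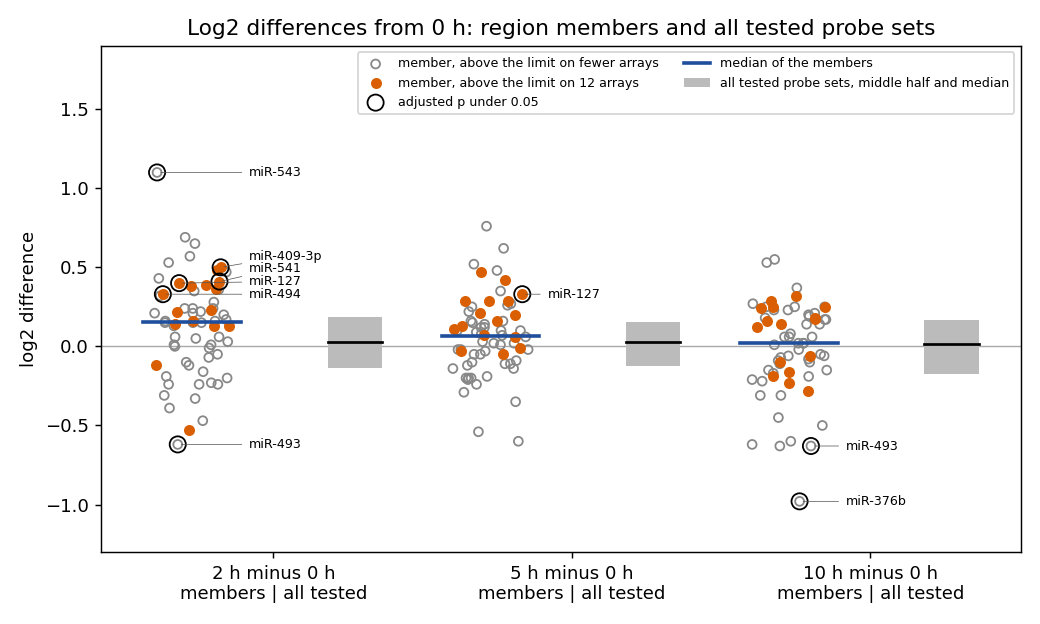
Log2 difference from 0 h (vertical axis) of each of the 65 members at 2, 5 and 10 h, with members above the limit on all 12 arrays filled and called members ringed and named, beside the middle 50% and the median of all 717 tested probe sets (grey bar, black line). The blue line is the median of the members, 0.155 at 2 h against 0.028 for all tested probe sets.

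The median over the 16 well measured members was also taken on each array. Their median deviation from the 0 h mean was -0.049, -0.066 and 0.096 on the 0 h arrays, 0.185, 0.253 and 0.371 on the 2 h arrays, 0.219, 0.238 and 0.201 on the 5 h arrays, then 0.214, 0.103 and 0.077 on the 10 h arrays. The 2 h and 5 h arrays all lay above the 3 arrays at 0 h, while the third 10 h array lay below the third 0 h array. Over the 307 other probe sets above the limit on all 12 arrays the same median stayed between -0.013 and 0.027.

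**Figure D3:**
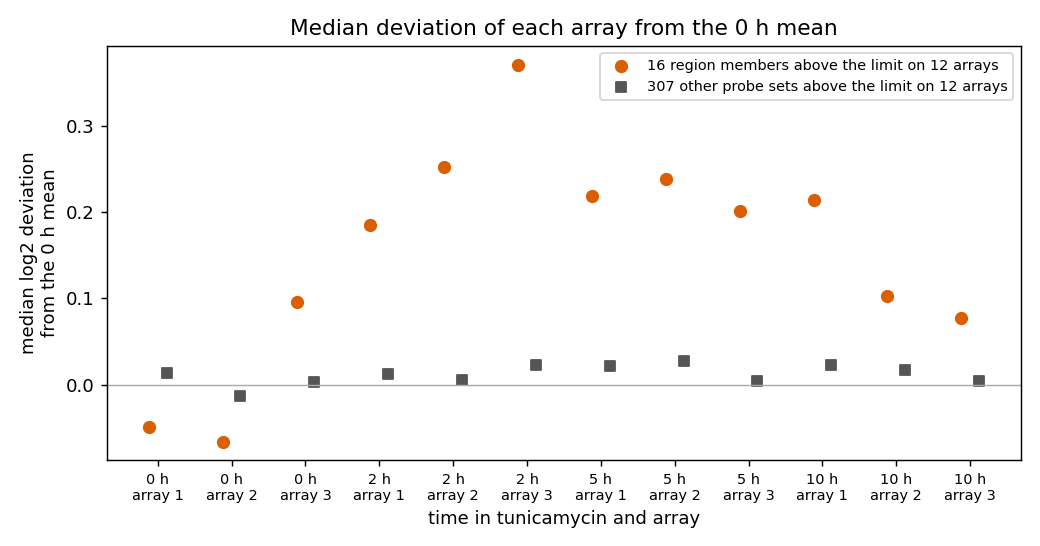
Median log2 deviation from the 0 h mean (vertical axis) on each of the 12 arrays (horizontal axis) for the 16 members above the limit on all 12 arrays (circles) and the 307 other such probe sets (squares). The circles lie between 0.185 and 0.371 at 2 h, and the squares stay between -0.013 and 0.027 throughout.

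MiR-127, miR-494, miR-541 and miR-409-3p, each above the limit on all 12 arrays, were higher at 2 h by 0.33 to 0.50 on the log2 scale. MiR-127, whose hairpin lies antisense to Rtl1 from 110831056 to 110831125, had values of 8.08, 8.12 and 8.17 at 0 h, 8.68, 8.37 and 8.51 at 2 h, 8.50, 8.62 and 8.25 at 5 h, then 8.32, 8.26 and 8.28 at 10 h. All 9 arrays of treated cells lay above all 3 arrays at 0 h. The log2 difference from 0 h was 0.40 ± 0.10 (SE) at 2 h (limma adjusted p = 0.014), 0.33 ± 0.10 at 5 h (limma adjusted p = 0.049) and 0.16 ± 0.10 at 10 h (limma adjusted p = 0.35). The 2 h call ended without the first 0 h array (adjusted p rounded to 0.05, limma) or the first 2 h array (0.082). The 5 h call ended without any array at 0 h, 5 h or 10 h except the third at 5 h, and without the third 2 h array, with limma adjusted p of 0.060 to 0.20. It also ended with the replicate number as a block, in the fit of all arrays (limma adjusted p = 0.078) and in that of the 0 h and 5 h arrays alone (0.18), and with each array shifted to 1 median (0.23). Over all tested probe sets, same-numbered arrays at 5 h and 0 h deviated together, with r of 0.19 to 0.60. For miR-127 itself the third array was the highest at 0 h and the lowest at 5 h.

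MiR-494, whose hairpin lies from 110953528 to 110953612, had values of 8.59, 8.49 and 8.41 at 0 h, 8.92, 8.87 and 8.71 at 2 h, 8.46, 8.46 and 8.49 at 5 h, then 8.92, 8.75 and 8.58 at 10 h. The 2 h arrays lay above all those at 0 h and 5 h, and the 10 h arrays overlapped those at 0 h. The difference was 0.33 ± 0.09 at 2 h against 0 h (limma adjusted p = 0.022) and -0.36 ± 0.09 at 5 h against 2 h (limma adjusted p = 0.012). At 10 h the value was 0.25 ± 0.09 above 0 h (limma adjusted p = 0.084), and without the third 10 h array it was 0.33 above and called (0.032). The 2 h call ended without the second or the third 0 h array or the first or second 2 h array (limma adjusted p of 0.056 to 0.097), and the step to 5 h without the first 2 h array (0.071).

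MiR-541, with its hairpin from 110980619 to 110980708, had values of 7.70, 7.31 and 7.66 at 0 h, 8.01, 7.86 and 8.03 at 2 h, 7.73, 7.95 and 7.87 at 5 h, then 7.95, 7.74 and 7.85 at 10 h. Its neighbour miR-409-3p, with the hairpin from 110981368 to 110981446, had 6.46, 6.02 and 6.56 at 0 h, 6.85, 6.68 and 7.03 at 2 h, 6.53, 6.75 and 6.40 at 5 h, then 6.50, 6.64 and 6.40 at 10 h. For both, the 2 h arrays lay above the 0 h arrays, and the second 0 h array was the lowest of the 12. At 2 h miR-541 was higher by 0.41 ± 0.11 (limma adjusted p = 0.023) and miR-409-3p by 0.50 ± 0.16 (limma adjusted p = 0.046). Without the second 0 h array these differences were 0.28 and 0.34, and neither call held (limma adjusted p of 0.11 and 0.19). The miR-541 call also ended without the first or the third 2 h array (limma adjusted p of 0.089 and 0.081), and the miR-409-3p call without the first 0 h array, the first or the third 2 h array, the first 5 h array or any 10 h array (limma adjusted p of 0.057 to 0.18). The replicate number as a block ended it too (limma adjusted p = 0.073).

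MiR-543 was the called member with the largest fitted rise at 2 h, measured against 0 h values near the background limit. Its hairpin lies from 110955468 to 110955543. Its values were 2.94, 3.36 and 3.66 at 0 h, 4.38, 4.35 and 4.54 at 2 h, 3.38, 3.01 and 3.50 at 5 h, then 2.81, 2.55 and 3.67 at 10 h. All 3 arrays at 2 h lay above the background limit and above every other array, whereas 1 array at 0 h, 2 at 5 h and 1 at 10 h were above the limit. The mean at 0 h was below the limit of each 0 h array, so no fold is given. The fitted log2 difference was 1.10 ± 0.30 at 2 h against 0 h (limma adjusted p = 0.023), -1.13 ± 0.30 at 5 h against 2 h (limma adjusted p = 0.022) and -1.41 ± 0.30 at 10 h against 2 h (limma adjusted p = 0.0044). The last of these held without any single array. The 2 h call ended without the first or second 0 h array or the first or the third 2 h array, with differences of 0.91 to 1.12 and limma adjusted p of 0.053 to 0.095. The step to 5 h ended without any 2 h array or the second 5 h array (limma adjusted p of 0.052 to 0.087).

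MiR-495, its near relative in sequence, had values of 4.64, 3.25 and 4.05 at 0 h, 4.60, 3.91 and 4.48 at 2 h, 3.70, 2.64 and 3.79 at 5 h, then 2.55, 3.83 and 4.08 at 10 h. The times overlapped except 5 h and 2 h, with all 5 h arrays below all 2 h arrays. It was not called, with a difference of 0.35 ± 0.44 at 2 h against 0 h (limma adjusted p = 0.69) and -0.95 ± 0.44 at 5 h against 2 h (limma adjusted p = 0.24).

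MiR-134 was lower at 10 h than at 2 h, and miR-376b was lower at 10 h than at each earlier time. MiR-134, known from rodent neurons as a regulator of dendritic spine size through Limk1, has its hairpin from 110972349 to 110972419. Its values were 5.84, 5.72 and 5.81 at 0 h, 6.47, 5.85 and 6.20 at 2 h, 6.05, 5.95 and 5.74 at 5 h, then 5.45, 5.54 and 5.52 at 10 h. The 10 h arrays lay below all others and the 2 h arrays above those at 0 h. Against 2 h the 10 h value was lower by 0.67 ± 0.17 on the log2 scale (limma adjusted p = 0.014), while neither 2 h nor 10 h was called against 0 h, at 0.39 ± 0.17 and -0.28 ± 0.17 (limma adjusted p of 0.16 and 0.35). The call ended without the first 2 h array, at -0.52, or the third 2 h array, at -0.65 (limma adjusted p of 0.089 and 0.053). Without the second 2 h array miR-134 was called higher at 2 h than at 0 h (0.55, limma adjusted p = 0.049).

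MiR-376b, with its hairpin from 110961668 to 110961749, had values of 3.35, 3.77 and 3.87 at 0 h, 3.43, 3.31 and 3.55 at 2 h, 3.28, 3.60 and 3.75 at 5 h, then 2.59, 2.69 and 2.77 at 10 h. Every 10 h array lay below every other array and below the background limit, and at each earlier time 2 of 3 arrays were above it. Since 10 h was not above background, miR-376b was at least 1.21-fold lower there than at 0 h, and the measured log2 difference was -0.98 ± 0.23 (limma adjusted p = 0.0093) and held without any single array. It was lower than at 5 h by 0.86 ± 0.23 (limma adjusted p = 0.039) and than at 2 h by 0.75 ± 0.23 (limma adjusted p rounded to 0.05), at least 1.12-fold and 1.03-fold. The step against 5 h ended without the third 0 h array, the second or the third 5 h array, or any array at 2 h or 10 h, and the one against 2 h without the third 0 h array, the first or the third 5 h array, or any array at 2 h or 10 h, with limma adjusted p of 0.052 to 0.16. MiR-376a, a near relative from the next hairpin, had values between 1.81 and 2.26, below the limit on all 12 arrays.

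MiR-493 and miR-1197 passed tests with values below the background limit on all 12 arrays, so no fold is given. MiR-493, with its hairpin from 110818443 to 110818525, had values of 2.08, 2.53 and 2.13 at 0 h, 1.55, 1.83 and 1.51 at 2 h, 2.24, 2.45 and 2.24 at 5 h, then 1.41, 1.80 and 1.64 at 10 h. The 2 h and 10 h arrays lay below those at 0 h and 5 h without overlap. The differences were -0.62 ± 0.16 at 2 h and -0.63 ± 0.16 at 10 h against 0 h (limma adjusted p of 0.019 and 0.014), 0.68 ± 0.16 at 5 h against 2 h (limma adjusted p = 0.0090) and -0.69 ± 0.16 at 10 h against 5 h (limma adjusted p = 0.017). Without the second 0 h array those against 0 h were -0.48 at 2 h and -0.49 at 10 h and were not called (limma adjusted p of 0.085 and 0.061). The 2 h call also ended without the first or the third 2 h array (0.076 and 0.079), the 10 h call without the first 10 h array (0.068), the step from 2 h to 5 h without the third 2 h array (0.053), and the step from 5 h to 10 h without the second 5 h array or the first or the third 10 h array (0.059 to 0.081), all limma adjusted p.

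MiR-1197, with its hairpin from 110950527 to 110950646, had values of 1.68, 1.56 and 1.96 at 0 h, 1.29, 1.48 and 1.44 at 2 h, 1.45, 1.68 and 1.47 at 5 h, then 1.74, 1.92 and 2.08 at 10 h. The 10 h arrays lay above all those at 2 h and 5 h and overlapped those at 0 h. At 10 h against 2 h the difference was 0.51 ± 0.13 (limma adjusted p = 0.015), and no time was called against 0 h unless arrays were weighted. That call ended without the first 2 h array, the second 10 h array or the third 10 h array (limma adjusted p of 0.050 to 0.084). With array weights miR-1197 was called lower at 2 h than at 0 h (-0.38, limma adjusted p = 0.039) and higher at 10 h than at 5 h (0.43, 0.047).

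**Figure D4:**
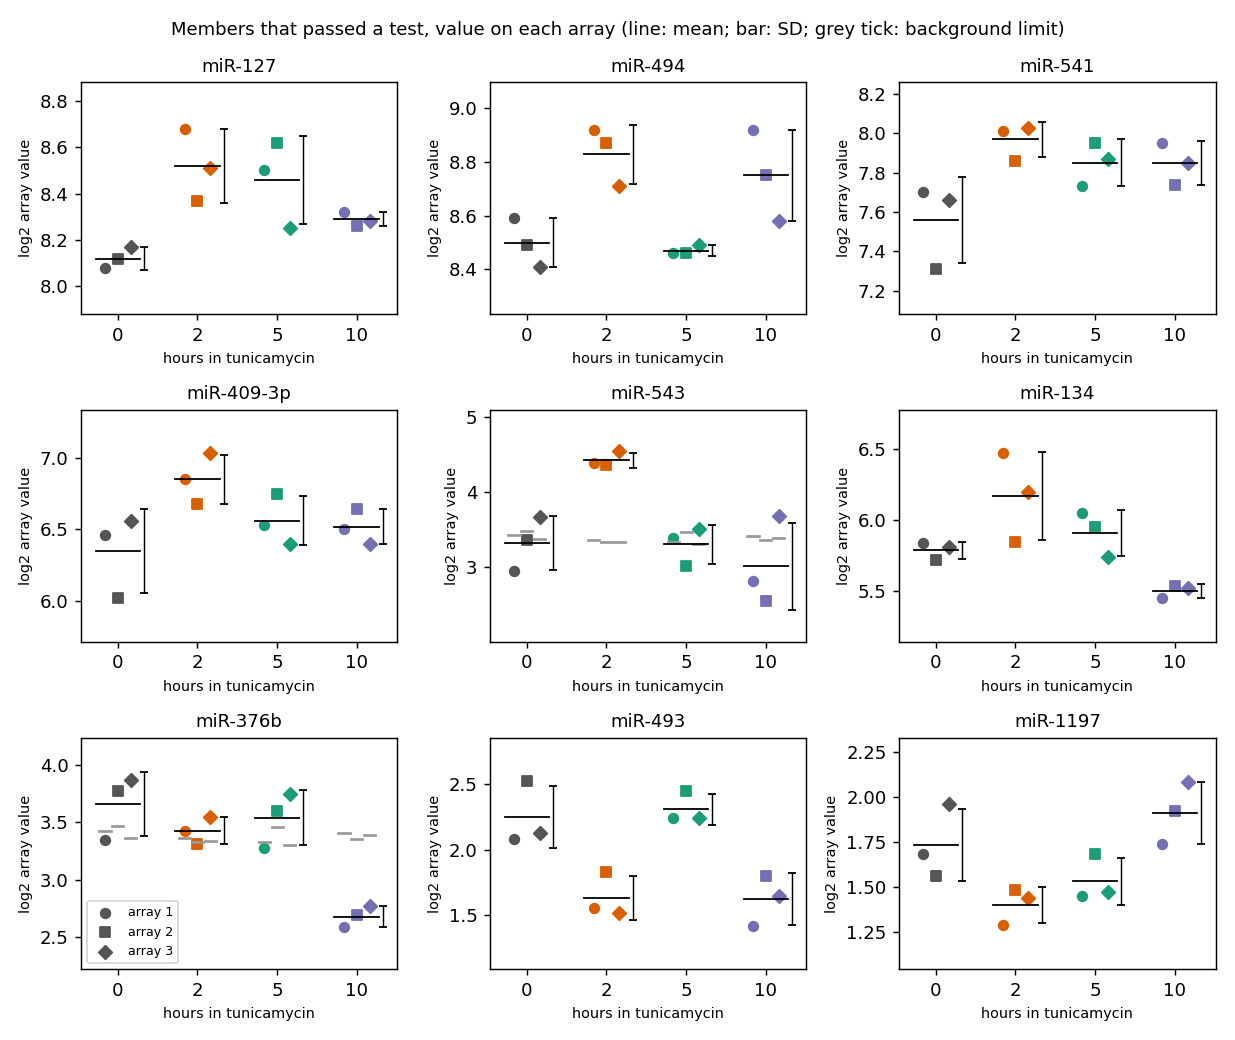
Log2 array value (vertical axis) of the 9 members that passed a test, on each of 3 arrays at 0, 2, 5 and 10 h in tunicamycin (horizontal axis), with the mean as a line, the SD as a bar and each array's background limit as a grey tick where it falls inside the axis. MiR-543 stands above its limit on all arrays at 2 h, and miR-493 and miR-1197 lie below it throughout; each vertical axis has its own range.

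Between later times, 3 members were called at 5 h against 2 h (10.7% of all tested probe sets), miR-543 and miR-494 lower (4.88% of all) and miR-493 higher (5.86% of all). At 10 h against 5 h 2 were called (5.58% of all), miR-376b and miR-493, both lower (3.77% of all). At 10 h against 2 h 4 were called (10.9% of all), miR-543, miR-134 and miR-376b lower (5.16% of all) and miR-1197 higher (5.72% of all). With each array shifted to 1 median, the calls of miR-494 at 5 h against 2 h (limma adjusted p = 0.083), of miR-376b and miR-493 at 10 h against 5 h (0.16 and 0.062) and of miR-376b and miR-134 at 10 h against 2 h (0.18 and 0.12) ended. Each of these contrasts shares arrays with the others.

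Other well measured members did not pass a test in the fit of all 717 probe sets, and some passed under another setting. MiR-337-5p had 6.15, 5.92 and 6.18 at 2 h, against 5.50, 5.62 and 5.69 at 0 h, a difference of 0.48 ± 0.17 (limma adjusted p = 0.076), called among the brighter 50% of probe sets, among those above the limit on 3 arrays of a time and with array weights (0.031, 0.031 and 0.039). MiR-382 had 6.74, 6.38 and 6.55 at 2 h, against 6.13, 6.13 and 6.33 at 0 h, a difference of 0.36 ± 0.15 (limma adjusted p = 0.14), and at 5 h the difference was 0.42 ± 0.15 (limma adjusted p = 0.10), called under both of those filters (0.047 and 0.048). In both, no array at 2 h overlapped those at 0 h. MiR-411 had 5.44, 5.05 and 4.84 at 10 h, against 5.40, 5.85 and 5.80 at 2 h, a difference of -0.57 ± 0.20 (limma adjusted p = 0.088), with overlap, called under both filters (0.036 and 0.035) and without the first 10 h array (0.035).

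MiR-379, the first hairpin of the long cluster that bears its name, passed no test between times. It had 7.23, 6.87 and 7.31 at 0 h, 7.29, 7.23 and 7.31 at 2 h, 7.18, 7.52 and 7.32 at 5 h, then 7.43, 7.17 and 7.25 at 10 h, with differences from 0 h of 0.14 to 0.20 and an SE of 0.13. MiR-329 lay between 5.47 and 6.41 over the 12 arrays and was not called in any contrast or by the F test (limma adjusted p = 0.85). MiR-434-3p was not called either (F test adjusted p = 0.41 in limma), but had 6.74, 6.85 and 6.82 at 10 h, against 6.48, 6.66 and 6.57 at 0 h, with no overlap. Its difference of 0.24 ± 0.11 (limma adjusted p = 0.19) was 0.37 after quantile normalization and was then called (limma adjusted p = 0.031).

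MiR-370, in Rian, was below the limit on all 12 arrays, with values between 2.30 and 3.20. MiR-410, near the far end of the largest group, was above it on 3 arrays, with values between 2.07 and 3.50 and an F test adjusted p of 0.97. MiR-485 and miR-654-5p, below the limit on all 12 arrays, had F test p-values next to those called, with adjusted p of 0.062 and 0.15. MiR-654-5p was called lower at 10 h than at 2 h under 5 alternatives (limma adjusted p of 0.024 to 0.04), and miR-485 higher at 10 h than at 0 h without the first 10 h array (0.03).

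The other strands and the precursors gave few readings. The region has 14 star strand probe sets, for the arm named as the minor one, and 61 hairpin probe sets. None of the 14 star strands was called in any contrast or by the F test in limma, and those with an unadjusted p under 0.05 numbered 1 for 2 h (24.5% of all tested probe sets), 2 for 5 h (18.5%) and 1 for 10 h (23.2%) against 0 h. MiR-299* and miR-3072* were above the limit on all 12 arrays and miR-411* on 10, and miR-127* and miR-376b* were above it on none. Of their other arms, miR-299, miR-411 and miR-127 were above it on all 12 arrays, miR-376b on 6 and miR-3072 on 1. MiR-3072* had 7.71, 8.24 and 7.97 at 10 h, against 7.56, 7.77 and 7.39 at 0 h, which overlapped (0.40, limma adjusted p = 0.086).

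Of the 61 hairpin probe sets, 4 were above the limit on all 12 arrays and 50 on none. None was called at 2, 5 or 10 h against 0 h in a separate limma fit, as for the 690 hairpin probe sets (0% called), and the unadjusted p was under 0.05 for 1 at 2 h (6.23% of the 690), 6 at 5 h (6.52%) and 4 at 10 h (7.54%). The hairpin probe sets of miR-127, miR-494, miR-541, miR-409, miR-543, miR-134, miR-376b, miR-493 and miR-1197 were all below the limit on all 12 arrays.

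MiRNAs of other imprinted genes were measured by 8 probe sets of a list chosen with earlier results known. Of these, miR-296-3p, miR-298 and miR-483 were above the limit on all 12 arrays. One, miR-296-3p, was lower at 2 h (-0.32, limma adjusted p = 0.034), where 5.86% of all tested probe sets were. None was called at 5 or 10 h (8.37% and 12.7% of all). Their median log2 difference was -0.14 for 2 h, 0.04 for 5 h and 0.07 for 10 h.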

How the data were processed

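Total RNA from NIH3T3 cells at 0, 2, 5 and 10 h in tunicamycin was hybridised to GeneChip miRNA arrays. The deposited values are log2 values per probe set, made by the authors with RMA per the labels, with no version given. The other deposited table repeats these values, and its columns of p-values, step-up p, ratios, fold changes, analysis of variance statistics and means were not used. The values were used as deposited. One limma model (version 3.58.1, R 4.3.3) with a factor of 4 times was fitted to the 717 mature probe sets, star strands (121) included, on the 12 arrays, and its prior variance followed the mean. The 690 hairpin probe sets were fitted apart, and 5 probe sets with an older annotation name were left out. All tests were two-sided, and the threshold was a Benjamini-Hochberg adjusted p of 0.05. The median standard error of a member was 0.199, and precision is limited by the number of arrays. The fit was tested on simulated data with independent arrays. That cannot give its error rate here, where same-numbered arrays at 0 h and 5 h deviated together.

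Members named are those called in any contrast or by the F test, the 10 with the highest mean, the 5 smallest F test p among those not called, and miR-127, miR-134, miR-370, miR-379, miR-410, miR-494 and miR-495. Star and hairpin probe sets of called members are named too. Other members are named as near relatives in sequence, as both arms of a hairpin, or as above the limit. The members and lists were chosen with earlier results of these data known. Over all tested probe sets, same-numbered arrays deviated together between 0 h and 5 h (r of 0.19 to 0.60 in 3 pairs). In the other comparisons 0 or 1 of 3 pairs had r over 0.1. The replicate number was therefore also used as a block in a fit of the 0 h and 5 h arrays, an alternative chosen after seeing the data. Arrays of a time had equal values for at most 0.283% of probe sets.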

Additional observations from a re-analysis of the deposited data

Results flagged for a closer look

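Differences between times of treatment, by the limma test of the difference itself, passed the threshold for 6 members, in contrasts that share arrays. At 5 h against 2 h, miR-493 was higher by 0.68, miR-543 differed by -1.13 and miR-494 by -0.36. At 10 h against 5 h, miR-376b differed by -0.86 and miR-493 by -0.69. At 10 h against 2 h, miR-543 differed by -1.41, miR-376b by -0.75 and miR-134 by -0.67, and miR-1197 was higher by 0.51. All are log2 differences, and miR-493 and miR-1197 were below the background limit on all 12 arrays.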

How the results depend on the processing

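None of the 18 calls of members held under every alternative, and none reversed direction. Calls at an adjusted p under the alternatives were counted for members only. Whether the share over all tested probe sets changed likewise was not counted, so these counts do not set the members apart from other probe sets. Leaving aside the filter on 3 arrays of a time, which miR-543 passed only through its high 2 h values, miR-543 at 10 h against 2 h held in 24 of 25 alternatives and miR-376b at 10 h against 0 h in 23 of 24, both ending only with the methods' t-test. MiR-127 at 5 h against 0 h held in 6 of 26, with that filter left aside as well. With each array shifted to 1 median, 1 member was called at 2 h, 0 members at 5 h, 0 members for 10 h against 5 h, 2 members for 10 h against 2 h and 4 by the F test, and the median at 10 h was 0.105. Quantile normalization called 0 at 5 h. The brighter 50% of probe sets, and those above the limit on 3 arrays of a time, gave 2 calls at 5 h, 0 calls at 10 h and 0 calls for 10 h against 5 h, without miR-376b and miR-493 among those tested; the second filter kept 25 members, with medians of 0.335, 0.157 and 0.144 at 2, 5 and 10 h, but miR-543, miR-540-3p and miR-495 passed it only through 2 h, where they were higher than at 0 h (1.10, 0.69 and 0.35), so these medians support nothing. Leaving out star strands called 0 at 5 h, and all mouse probe sets in the fit called 3 at 2 h and 0 at 5 h. A constant prior variance called 3 at 2 h, 0 at 5 h and 4 by the F test. The methods' t-test after Benjamini-Hochberg adjustment called 0 at 2, 5 and 10 h (11, 2 and 6 at an unadjusted p under 0.05, where 20.5%, 15.3% and 21.3% of all tested probe sets were), 1 at 5 h against 2 h, 0 at 10 h against 5 h (7 unadjusted, 12.4% of all) and 1 at 10 h against 2 h, and analysis of variance called 2. The 6 arrays of the times compared gave 0 at 5 h and 1 at 10 h against 5 h. The replicate number as a block, for which 3 of 12 arrays correlated best with their own number, called 0 at 5 h, in the fit of all arrays and in that of the 0 h and 5 h arrays alone. It also ended the call of miR-409-3p at 2 h and no other call of a member in a contrast. With the second arrays of 0 h and 5 h both left out, 2 were called at 2 h, 0 for 5 h and 1 for 10 h against 5 h. A change of at least 1.5-fold as well left 2 at 2 h, 0 at 5 h and 4 by the F test. Leaving out each array in turn gave 0 to 6 calls at 2 h, 0 to 1 calls at 5 h, 1 to 4 calls at 10 h, 1 to 3 calls for 5 h against 2 h, 0 to 2 calls for 10 h against 5 h, 2 to 4 calls for 10 h against 2 h and 3 to 6 calls by the F test. Leaving out the first 2 h array gave the 0 at 2 h. The median of the members ranged from 0.123 to 0.193 for 2 h, from 0.024 to 0.109 for 5 h and from -0.026 to 0.059 for 10 h. The cause of these shifts was not tested. With a limit of 2 or 4 spreads, 18 or 13 members were above it on all 12 arrays. Signal near background limits 49 of the 65 members.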
